A study of Homo sapiens with 2 samples.

Results

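The genes described here are 10 members of the insulin-like growth factor (IGF) axis, with IGFBP1 read against the other 9, in a human liver cancer cell line with and without a secreted protease, PRSS35. They were selected on their FPKM in the same 2 libraries with earlier results of these data known, so their levels and differences are given as a description. The members are the binding proteins IGFBP1, IGFBP2, IGFBP3, IGFBP4 and IGFBP6, the ligand IGF2, the receptors IGF1R, IGF2R and INSR, and the adaptor IRS1. All 10 were found by symbol among the 26257 gene names present in both libraries, and 9 of them reached a mean of 1 FPKM in the pair, as did 11118 genes in all, which are called expressed here. IGFBP6 was under this limit. FPKM is the number of fragments assigned to a transcript, divided by its length and by how many fragments the library mapped.

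PLC cells, a liver cancer line, carried either the empty lentiviral vector (EV, labelled wild type) or the same vector with PRSS35. Stable expression followed puromycin selection. The EV cells therefore share the vector and the selection with the PRSS35 cells, and differ from them in the transgene. Total RNA was sequenced from 1 library per condition. No difference has a replicate check, no test between the conditions was made and no p-value is given. The only error available is the pair of bounds that Cufflinks puts around each FPKM, which covers counting and assignment within a library and leaves out variation between cultures. Whether the PRSS35 cells are a clone or a pool is not given in the sources used here. Routine culture was in medium with serum, but whether serum was present when RNA was taken is not given either.

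PRSS35, the transgene, had an FPKM of 0.643 in the EV library (bounds 0.445 to 0.841) and 1836 in the PRSS35 library (bounds 1759 to 1912). The libraries were equally deep by the one measure the tables allow, since 1 fragment was worth nearly the same FPKM in both (median of PRSS35 over EV 0.999 at 189 loci). Of 11 hepatocyte lineage markers, 10 were expressed, and their summed FPKM was 3440 in EV and 5212 in PRSS35. SERPINA1, the α1-antitrypsin gene, gave most of this sum, with 2528 in EV and 4239 in PRSS35, and most of its difference. Bounds were apart for 6 markers in the higher direction and for 1 in the lower, APOA1, the second most abundant, at 576 in EV and 494 in PRSS35. Over all expressed genes, bounds were apart for 25.1% in the higher and 15.5% in the lower direction. ALB, the albumin gene, stood at only 4.05 and 5.21, and AFP, the fetal α-fetoprotein, at 18.9 and 17.7 with overlapping bounds. Of 6 fibroblast and stellate cell markers 1 was expressed, with a sum of 1.75 in EV and 2.03 in PRSS35, and the 4 endothelial markers summed to 0.0373 and 0.0307. Among 5 leukocyte markers PTPRC and CD3E were listed at 0 in both libraries, while LYZ was at 94.0 and 104 and CD68, in a locus joined with MPDU1, at 297 and 278. These libraries are bulk RNA, so a smaller share of cells with a transcript and less of it per cell cannot be told apart.

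IGF1 and IGF2 are peptide growth factors that signal through the IGF1 receptor and, with insulin, through the insulin receptor, and both receptors pass the signal to IRS adaptors, PI3K and AKT. Secreted IGF binding proteins hold the ligands outside the cell, extend their life and keep them from the receptors or deliver them. The liver is the main source of circulating IGF1 and of IGFBP1, and insulin represses the IGFBP1 gene through AKT, which excludes FOXO factors from the nucleus. Hypoxia and amino acid shortage are known to raise IGFBP1 transcripts.

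IGFBP1, whose product binds both IGFs and is the binding protein that insulin controls acutely, was the most abundant member in both libraries. It lies on chromosome 7 of hg19 from 45927959 to 45933267, on the plus strand, with 4 exons in GENCODE. Its FPKM was 411 in EV (bounds 404.5 to 417.1) and 841 in PRSS35 (bounds 832.2 to 850.0). The bounds lie far apart, and the PRSS35 level was 2.05 times the EV level. On the scale used below, log2((PRSS35 FPKM + 1) / (EV FPKM + 1)), the difference was 1.03, with a 95% interval of 1.01 to 1.06 for error within the libraries. The bounds imply about 17215 fragments in EV and 35714 in PRSS35 behind these values, so counting error is small beside the difference.

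Among expressed genes, IGFBP1 ranked 426 by FPKM in EV and 190 in PRSS35, that is from the top 3.83% to the top 1.71%. A threshold of 2-fold was used to call a gene, and IGFBP1 lies just inside it. Once log2 differences were centred on the median of expressed genes, which was 0.06, IGFBP1 stood at 0.97 and was no longer called. IGFBP3 was the nearest member outside the threshold, at 0.63. Scaling each library to its total FPKM, unnamed loci included, moved the median of expressed genes to 0.68 and IGFBP1 to 1.74, so differences below are to be read against the median. Under that scaling IGFBP2 stood at 0.18 and IGF2 at 0.34, and other genes given below as slightly lower in PRSS35 can also turn higher.

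**Figure D1:**
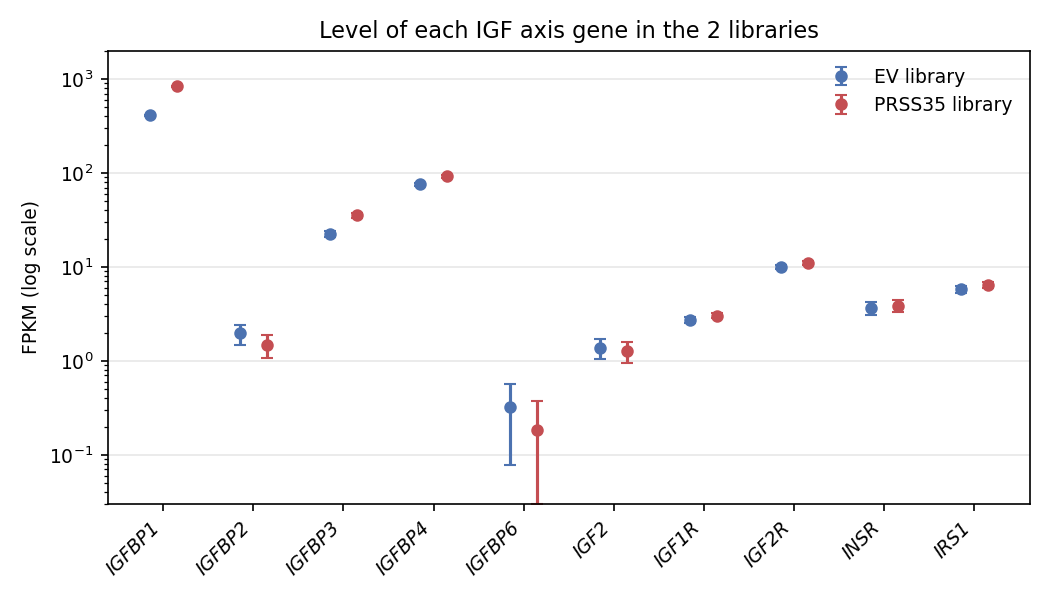
FPKM of the 10 IGF axis genes (log scale) in the EV and PRSS35 libraries, 1 library each, with the bounds deposited beside each value as bars, cut at the bottom of the axis where a lower bound is 0. IGFBP1 sits highest in both, at 411 in EV and 841 in PRSS35, and IGFBP6 lowest, at 0.323 and 0.185.

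IGFBP1 was the only member called at 2-fold in the higher direction, and 0 members were called lower. As background, 303 of 11118 expressed genes, or 2.73%, were called higher, and 276, or 2.48%, lower, beside 1254 and 184 with the libraries scaled to their total FPKM. IGFBP1 ranked 295 by log2 difference among the expressed genes, 186 when 5 FPKM was added before taking log2, 367 when 0.1 was added, and 181 where only loci named by the symbol alone were counted. Of the 303, 103 were read from a locus whose number of joined genes differed between the libraries. Among the 2365 expressed genes that kept their annotated locus and were above 0 in both libraries, a restriction chosen after the data were seen, 7 (0.296%) were called higher and 8 (0.338%) lower. IGFBP1 was the last of these 7 by size of difference. PRSS35 led them, and the other five, HIST1H2AB, HRCT1, S100A14, HIST1H2BM and DSCR8, had low levels, from 0.236 to 2.45 FPKM in EV and from 1.83 to 6.21 in PRSS35.

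Of the 97 genes in this set with a mean FPKM of at least 100, 2 passed 2-fold, PRSS35 and IGFBP1. DDIT4, an inhibitor of mTOR signalling that is induced by stress, came next, with 127 FPKM in EV and 241 in PRSS35, a log2 difference of 0.92 (95% interval 0.87 to 0.97). It was followed by CGA, the common α subunit of glycoprotein hormones, at 0.54. As IGFBP1 was selected on this difference, its place among abundant transcripts is a description.

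**Figure D2:**
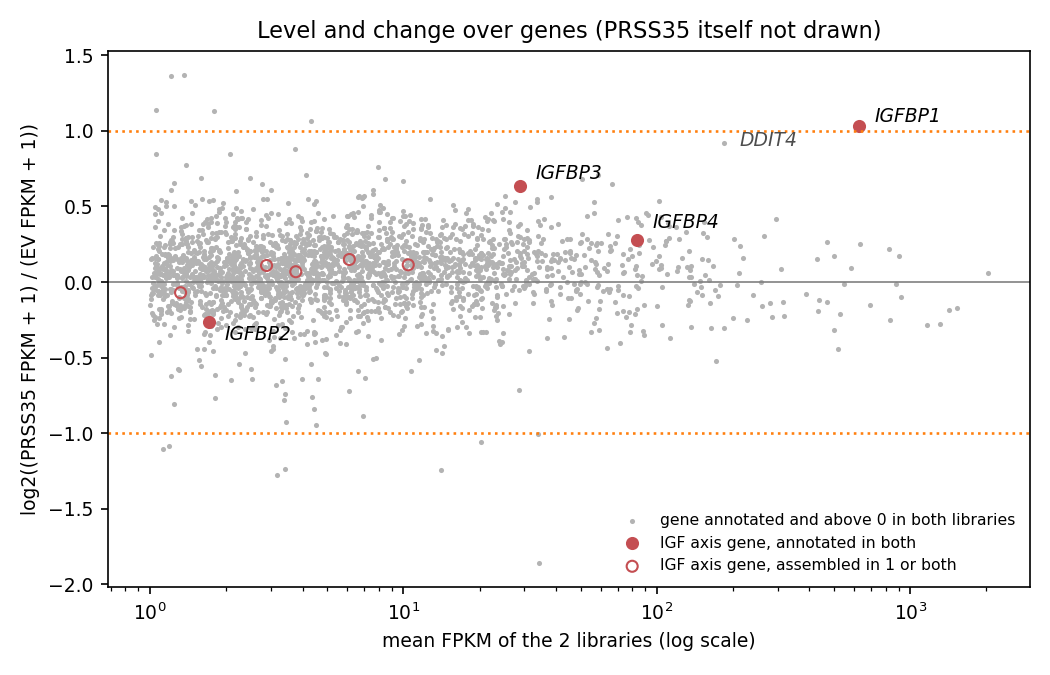
Log2 difference between the PRSS35 and EV libraries against the mean FPKM of both (log scale), for the genes that kept their annotation and were above 0 in both libraries (grey) and for the expressed IGF axis genes (red, filled where the locus was annotated in both). IGFBP1 lies at 1.03, just past the dotted 2-fold line, and DDIT4 at 0.92 is the nearest abundant gene below it.

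IGFBP3, the main carrier of IGFs in serum, lies 18.6 kb from IGFBP1, on the minus strand of chromosome 7 from 45951844 to 45960871. Its FPKM was 22.4 in EV (bounds 20.96 to 23.86) and 35.3 in PRSS35 (bounds 33.30 to 37.34). The bounds do not overlap, and the log2 difference was 0.63 (95% interval 0.52 to 0.75), or 1.58 times the EV level. The bounds imply about 957 fragments in EV and 1223 in PRSS35, a smaller ratio than that of the FPKM. These values are therefore not to be read as counts of fragments. IGFBP4, which mostly holds IGFs away from their receptors and lies on chromosome 17 from 38599676 to 38613982, was at 75.7 in EV (bounds 73.4 to 77.9) and 91.9 in PRSS35 (bounds 89.5 to 94.4). Its log2 difference was 0.28 (95% interval 0.22 to 0.33), again with bounds that do not overlap.

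The remaining binding proteins of the list were low. IGFBP2, which is abundant in fetal liver and in many tumors, was at 1.96 in EV (bounds 1.49 to 2.43) and 1.46 in PRSS35 (bounds 1.06 to 1.86). IGFBP6, which prefers IGF2, was at 0.323 in EV (bounds 0.0788 to 0.567) and 0.185 in PRSS35 (bounds 0 to 0.370), and the bounds imply about 7 and 4 fragments. For both genes the bounds overlap, and the 95% intervals of the log2 difference, -0.59 to 0.06 for IGFBP2 and -0.50 to 0.18 for IGFBP6, hold 0. No difference was detectable for them at this depth.

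Over the members, 3 genes, IGFBP1, IGFBP3 and IGFBP4, had bounds that do not overlap, all higher in PRSS35, and the bounds of the other 7 overlap. Over all expressed genes, 25.1% had bounds apart in the higher direction and 15.5% in the lower direction, so bounds apart are common between these libraries. IGFBP1, IGFBP3 and IGFBP4 were also the 3 most abundant members. The median log2 difference was 0.11 over the expressed members and 0.06 over all expressed genes.

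**Figure D3:**
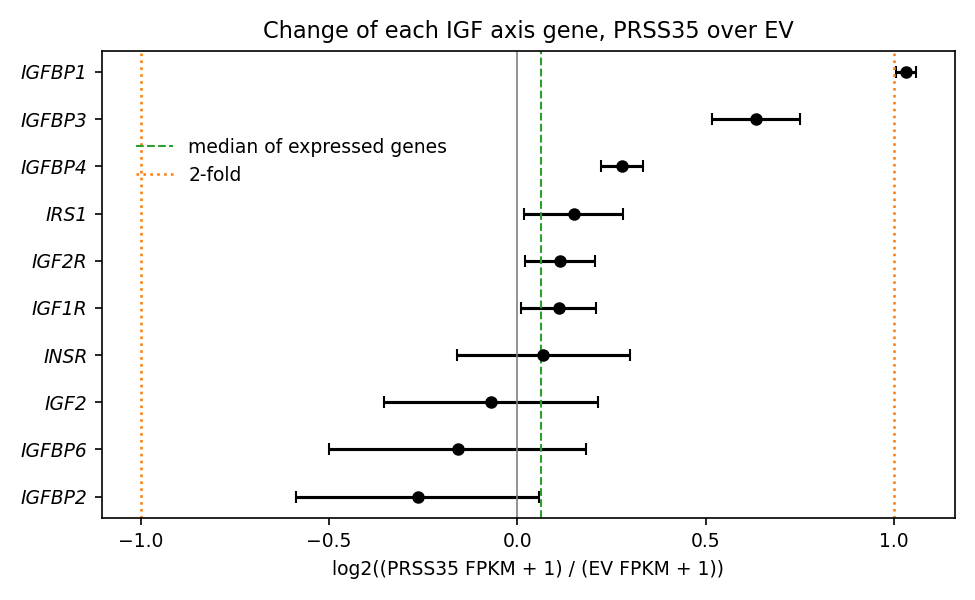
Log2 difference between the PRSS35 and EV libraries for each IGF axis gene, with 95% intervals for error within the libraries as bars, the median of expressed genes as a dashed line and 2-fold as dotted lines. IGFBP1 at 1.03, IGFBP3 at 0.63 and IGFBP4 at 0.28 have intervals wholly above the median line, though that of IGFBP4 overlaps those of INSR and IRS1. The other intervals hold the median line or, for IGFBP2, end just under it.

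IGFBP1 took a larger share of the transcripts of its family. The FPKM of IGFBP1 to IGFBP7 summed to 632.4 in EV and 1131 in PRSS35, a difference of 498.7. IGFBP1 made up 65.0% of this sum in EV and 74.4% in PRSS35, and 86.3% of the difference. IGFBP7, a related protein with weak affinity for IGFs, took 19.2% in EV and 14.2% in PRSS35, and IGFBP4 took 11.96% and 8.13%. IGFBP1 exceeded IGFBP4 by 5.43 times in EV and 9.15 times in PRSS35, and IGFBP3 by 18.3 and 23.8 times.

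The promoter of IGFBP3, the next member by size of difference, was chosen after the hypoxia genes read out below were seen. Whether hypoxia factors act on it in these cells was not tested. Of the 10 members, 8 have an entry in RefSeq's promoter table (GRCh38.p14), and IGFBP1 and IGF2 have none. The 250 bases before the start of IGFBP3 are chr7:45921273-45921522, on the minus strand, 76.0% G or C. Capitals mark the core letters to which hypoxia-inducible factors bind, ACGTG or GCGTG on either strand, with overlapping matches merged.
IGFBP3: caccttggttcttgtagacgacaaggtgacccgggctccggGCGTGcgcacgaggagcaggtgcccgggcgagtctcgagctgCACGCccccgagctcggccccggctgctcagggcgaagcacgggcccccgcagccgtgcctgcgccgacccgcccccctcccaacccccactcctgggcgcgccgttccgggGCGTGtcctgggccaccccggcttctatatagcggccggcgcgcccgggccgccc
Here 3 matches lie at positions -209, -167 and -55 from the start. Among 35116 promoters of this length, whatever their content of G or C, 43.2% hold at least 1 match and 5.56% hold 3 or more. IGFBP3 is not alone among the members in this, since the same window holds 5 matches for IGF1R and 3 for IGF2R, whose log2 differences were both 0.11. IRS1 and 1 of the 3 entries of IGFBP2 hold 1 match each, and the promoters of IGFBP4, IGFBP6 and INSR hold no such letters in this window, which says nothing of the factors themselves. Letters of FOXO factors, GTAAACA and TGTTT on either strand, were also searched, and the IGFBP3 window holds neither. Over all promoters, 2.98% hold GTAAACA and 40.4% hold TGTTT. IGFBP6 holds 1 match to GTAAACA, at -186. Its 1 match to TGTTT, at -184 on the other strand, lies within those letters and is not a separate site. TGTTT also occurs for IRS1 and 1 entry of IGFBP2.

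IGFBP3, the expressed gene nearest to IGFBP1, was higher in PRSS35, while the other expressed genes within 1 Mb of IGFBP1 were not. Within this window on chromosome 7, 13 named genes were found and 5 of them were expressed. Apart from IGFBP3, these were SNHG15, at 94.5 in EV and 73.1 in PRSS35, CCM2 at 55.4 and 54.7, TBRG4 at 339 and 251, and SEPT7P2 at 1.52 and 1.01. Their log2 differences were -0.37, -0.02, -0.43 and -0.32, and the bounds of SNHG15 and TBRG4 do not overlap. From IGFBP1 they lie at -902, -812, -777 and -119 kb, where minus means lower coordinates, so most are far away.

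IGF2, the fetal growth factor of the family, was low. Its locus on chromosome 11, from 2150342 to 2182439, was joined with INS and INS-IGF2 in both libraries, so reads of IGF2 and insulin cannot be told apart here. The joined locus had an FPKM of 1.38 in EV (bounds 1.04 to 1.71) and 1.26 in PRSS35 (bounds 0.937 to 1.59). The log2 difference was -0.07 (95% interval -0.35 to 0.21), with overlapping bounds. IGF1, the other ligand, was listed at 0 in both libraries.

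The receptors and IRS1 were expressed at low to middle levels and differed little. IGF1R, the receptor tyrosine kinase for both IGFs, was at 2.74 in EV (bounds 2.55 to 2.92) and 3.03 in PRSS35 (bounds 2.83 to 3.23). IGF2R, which carries IGF2 to lysosomes, was the most abundant receptor, at 10.0 in EV (bounds 9.46 to 10.5) and 10.9 in PRSS35 (bounds 10.4 to 11.4). INSR, the insulin receptor, was at 3.65 in EV (bounds 3.09 to 4.21) and 3.87 in PRSS35 (bounds 3.34 to 4.41). In each case the bounds overlap between the libraries.

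IRS1, the adaptor that both tyrosine kinases phosphorylate, was at 5.75 in EV (bounds 5.31 to 6.19) and 6.48 in PRSS35 (bounds 5.99 to 6.98). The log2 differences of IGF1R, IGF2R, INSR and IRS1 were 0.11, 0.11, 0.07 and 0.15, close to the median of 0.06 over expressed genes. For INSR the 95% interval was -0.16 to 0.30, and those of the other three began at 0.01 for IGF1R and 0.02 for IGF2R and IRS1. The ratio of IGF2R to IGF1R was 3.65 in EV and 3.60 in PRSS35, and that of INSR to IGF1R was 1.33 and 1.28. IGF2R, INSR and IRS1 were read from reassembled loci in both libraries and IGF1R in the PRSS35 library, so the transcript length behind their FPKM may differ between the libraries.

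Beyond the members, 103 genes were read in 9 lists, and 73 of them were expressed. The lists hold further genes of the axis and its signalling, FOXO genes, factors at the IGFBP1 promoter and hypoxia genes. INS and INS-IGF2, the expressed genes of the ligand list, were read from the joined locus of IGF2 and add no value of their own. None of the 73 was called higher at 2-fold and 1, PDK1, was called lower. Over all expressed genes 2.73% were called higher and 2.48% lower, so these small counts are no result about the lists. The lists were chosen with earlier results of these data known, and they are described by counts of genes with bounds apart and by their medians. Each count is to be read beside the share over all expressed genes, 25.1% higher and 15.5% lower. A count near that share is no result about its list.

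Of 4 further binding proteins and partners, 2 were expressed, and both were higher with bounds apart. They were IGFBP7, at 121 in EV and 161 in PRSS35, and IGFBPL1, at 6.58 and 9.45. IGFBP5, a carrier found mainly in connective tissue and bone, was at 0.0160 in both. Of 8 proteases that cut binding proteins and inhibitors of these proteases, 2 were expressed, HTRA1, a secreted serine protease, at 10.8 in EV and 14.2 in PRSS35, and STC2, an inhibitor of pappalysins, at 26.0 and 37.01. The pappalysins themselves, PAPPA and PAPPA2, were listed at 0 in both libraries.

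All 4 genes of the list of IGF2 mRNA-binding proteins and H19 were expressed. Of these, 3 were higher with bounds apart and 1 was lower. H19, the noncoding RNA imprinted together with IGF2 and joined here with MIR675, was at 43.4 in EV and 61.5 in PRSS35. IGF2BP1 was at 17.0 and 19.2. IGF2BP2 was at 18.9 and 24.6, but the fragments its bounds imply go the other way, about 1576 in EV and 1133 in PRSS35. IGF2BP3 was at 4.91 and 3.87, lower in PRSS35, and was reassembled in EV only. Its implied fragments also go the other way, about 316 in EV and 387 in PRSS35. Reassembled loci can share reads, so implied fragments do not settle the direction of IGF2BP2 or IGF2BP3.

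Of 16 receptor adaptors and feedback regulators, 9 were expressed, 4 of these with bounds apart in the higher direction and 0 in the lower. SHC1, read from a locus joined with PYGO2, was the most abundant, at 95.3 in EV and 107 in PRSS35. Its implied fragments go the other way, about 4959 in EV and 4656 in PRSS35. GRB2, which links receptors to RAS, was at 46.1 and 66.8, the widest difference in this list at 0.53. IRS2, the other main hepatic adaptor, was at 0.430 and 0.373, under the limit for expressed genes. Of 25 genes of PI3K, AKT, TSC and mTOR signalling, 20 were expressed, with a median log2 difference of 0.01. Among them 4 were higher and 3 lower with bounds apart, and 13 overlap. For PHLPP2, an AKT phosphatase and 1 of the 3 lower genes, at 1.75 in EV and 0.810 in PRSS35, the implied fragments again go the other way, about 93.4 and 139. Its locus was reassembled in both libraries, so its direction is uncertain. EIF4EBP1, the translation repressor that mTOR phosphorylates, was the most abundant, at 951.5 in EV and 890.2 in PRSS35.

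Among 16 FOXO factors and genes that insulin represses through FOXO in liver, 9 were expressed, with a median of 0.24, and 4 were higher with bounds apart. Over all 16 genes, without the filter on low values, the median was 0.042. G6PC, the last enzyme of glucose release, was at 17.6 in EV and 27.0 in PRSS35, the highest mean of this list. PCK1, which makes phosphoenolpyruvate for glucose synthesis, was at 7.23 and 9.56, and KLF15 at 3.38 and 5.54. FOXO4, also higher with bounds apart, was at 2.88 and 4.17. FOXO1 was at 3.39 and 3.99, and FOXO6 at 7.05 and 6.11, both with overlapping bounds. The bounds of GADD45A, CDKN1B and TRIB1 overlap too, with log2 differences of 0.24, -0.04 and 0.001. All differences in this list were smaller than that of IGFBP1. They were 0.59 for G6PC, 0.36 for PCK1, 0.58 for KLF15, 0.42 for FOXO4, 0.19 for FOXO1 and -0.18 for FOXO6.

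Of 15 factors known to act on the IGFBP1 promoter, 14 were expressed, with a median of 0.07. Bounds were apart for 4 in the higher and 2 in the lower direction. One of the lower genes, FOXA3, a hepatocyte forkhead factor at 49.7 in EV and 44.1 in PRSS35, had more implied fragments in PRSS35, about 2379 against 1239. Its locus was reassembled in EV only, so its direction is uncertain. ATF4, which activates genes under amino acid shortage, was the most abundant, at 383 in EV and 441 in PRSS35, a log2 difference of 0.20. HIF1A was at 4.70 and 5.04, with overlapping bounds.

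The hypoxia genes had the highest median of the 9 lists, at 0.52 over 11 expressed genes of 12. Of these, 8 were higher with bounds apart, 1 was lower and 2 overlap. PGK1, a glycolytic enzyme, was the most abundant, at 293 in EV and 523 in PRSS35, with a log2 difference of 0.83. NDRG1, a gene induced by hypoxia, was at 13.3 and 23.6, and CA9, a carbonic anhydrase at the cell surface, at 38.7 and 62.7. Others differed little, with log2 differences of 0.19 for VEGFA, 0.14 for SLC2A1 and 0.04 for BNIP3. The bounds of SLC2A1 and BNIP3 overlap. PDK1, the kinase that inhibits pyruvate dehydrogenase, was at 9.02 in EV and 2.54 in PRSS35, a log2 difference of -1.50. Its locus was reassembled in both libraries, and the fragments its bounds imply go the other way, about 71.7 in EV and 219 in PRSS35. Implied fragments are unreliable at such loci, so the direction of PDK1 is uncertain. Whether these levels, or those of the hepatocyte markers, have a part in the difference of IGFBP1 was not tested.

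The genes whose pair of values was nearest to that of IGFBP1 were found by Euclidean distance on log2(FPKM + 1) over the 2 libraries. They were C19orf53, at 399.6 in EV and 742.4 in PRSS35 (distance 0.184), POLR2E at 495.0 and 713.5, AGT, the angiotensinogen gene, at 474.3 and 665.7, CALR at 525.0 and 724.1 and PSMA7 at 520.3 and 678.2. With 2 points a gene, this likeness mostly says that they share a level. All 5 were read from a reassembled locus in at least one library, while IGFBP1 kept its annotated locus in both. For CALR and PSMA7 the implied fragments were fewer in PRSS35, about 2210 against 26547 and 2047 against 11989.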

How the data were processed

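The authors sequenced total RNA of PLC cells carrying the empty vector or overexpressing PRSS35, 1 library each. Reads were mapped to hg19 by TopHat2 (version 2.1.0), and transcripts were assembled and estimated by Cufflinks. The submitters' processing notes also name Cuffdiff 2.2.1 and a fly build. The annotation release and options are not given in the sources used here. The deposited values are the FPKM of each locus, with a lower and an upper bound, and no counts were used. Depth in reads is unknown.

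Members and lists were chosen with earlier results of these data known. Loci were matched by gene symbol, also inside joined names, and FPKM was summed over loci of one name. Bounds were taken as 2 SD. Expressed genes are those that reached a mean of 1 FPKM over the pair. Differences used a pseudocount of 1 FPKM, which understates those of low genes, and a threshold of 2-fold. A locus was called reassembled where its identifier was one that Cufflinks assigns. The fragments implied at a locus are (2 FPKM / (upper bound - FPKM)) squared, which holds only for loci without shared reads. At PRSS35 they were about 42.2 in EV, at 0.643 FPKM, and 2310 in PRSS35, at 1836 FPKM. The latter is far fewer than that FPKM would take at equal depth. At some other annotated loci, such as IGFBP3, they also rise less than the FPKM. There, at PRSS35 and at reassembled loci they describe the width of the bounds and are not a count of fragments. For the depth ratio, loci with 5 to 200 implied fragments within 0.01 of a whole number were used. The genes named were to be PRSS35, all members, each list's genes past 2-fold, the most abundant gene of each list and the 5 genes nearest to IGFBP1. Others, including the neighbours, the abundant annotated genes and further list genes, were chosen after their values were seen. The scripts were tested on simulated data. Alternatives were pseudocounts of 0.1 and 5 FPKM, other scalings, other treatment of loci of one name and of joined loci, a 1.5-fold threshold and other filters. Protein sequences were not analysed here. The value of 1 listed gene is not reported here. Exons came from GENCODE v44lift37. Software was Python 3.11.15 with pandas 2.3.3, numpy 2.4.6 and matplotlib 3.10.9.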

Additional observations from a re-analysis of the deposited data

How the results depend on the processing

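IGFBP1 was higher in PRSS35 under every scaling and pseudocount tried. Its log2 difference, 1.03 as reported, was 0.97 with centring on the median, 0.97 with upper quartile scaling, 1.08 with FPKM divided by its sum over named loci and 1.74 with its sum over all loci. The number of members called higher, 1 as reported, was 0 with centring and with upper quartile scaling, 2 with the sum over all loci and 2 at 1.5-fold, where IGFBP3 joined IGFBP1. The sum over all loci shifted the median of expressed genes to 0.68, the median of the members to 0.76 and the counts of genes to 1254 higher and 184 lower, beside 303 and 276 as reported. It also moved the medians of the lists, to 1.10 for other binding proteins, 0.34 for ligands (the IGF2 locus), 1.10 for proteases and inhibitors, 0.94 for IGF2 mRNA-binding proteins and H19, 0.83 for adaptors, 0.61 for PI3K, AKT, TSC and mTOR, 0.83 for FOXO, 0.71 for factors at the IGFBP1 promoter and 1.20 for hypoxia.

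Genes called higher numbered 192 with a pseudocount of 5 FPKM, 187 where only loci named by the symbol alone were counted, 581 at 1.5-fold and 7 where loci annotated and above 0 in both libraries were kept, a setting chosen after seeing the data. Genes called lower numbered 162, 475 and 8 for the pseudocount of 5, 1.5-fold and that setting, and 169 with a mean FPKM of at least 5. Without a filter, the list medians were 0.20 for other binding proteins, 5.61e-05 for proteases and 0.042 for FOXO, and with a mean of at least 5 the adaptors stood at 0.33. The cause was not tested. IGF2 has no value where joined loci are left out. No paired analysis was possible because there is a single library of EV and of PRSS35 cells, and no replicate could be left out. Depth limits IGFBP6, IGFBP2 and IGF2, whose intervals are wide.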
